A study of Mus musculus with 21 samples.

Results

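Wound bed and wound edge were compared at 15 days after wounding, with 3 arrays of bed and 3 arrays of edge, 6 of the 21 arrays of the series. The comparison took the arrays by their titles and ran over all 1687 probes of the array, of which 974 were bright enough to test. The bed samples are tissue from inside the wound, and the edge samples are the strip of regenerating skin around it, 2 mm wide. All mice were females of the strain C57Bl/KS-db/+, 9 to 13 weeks old, so bed, edge and intact animals all carried 1 db allele, a mutation of the leptin receptor gene, and no group is without it. The wound was a square of 1.5 cm per side on the back, cut through skin and panniculus carnosus and covered by a transparent dressing, and intact shaved skin was the unwounded control (3 arrays). The design text gives 3 animals a time point, and no label tells whether bed and edge were cut from 1 animal. Skin of the operation day is also mentioned in the labels of the bed samples, which are taken here as wound bed, as titled.

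As background, the bed of a healing skin wound fills with granulation tissue, made of new vessels, fibroblasts, inflammatory cells and fresh matrix. The edge keeps skin structure, and from it keratinocytes migrate and divide to cover the bed. The title of the series names heparan sulfate, a sugar chain carried by matrix and cell-surface proteins that binds growth factors and is cut by heparanase.

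A gene symbol could be matched to 3 probes (Hpse, Fbln1 and Ndst3). The other probes are reported by identifier with no gene name, 1612 of them under catalogue identifiers. Marker genes of keratinocytes, vessels, fibroblasts or leukocytes could therefore not be read, and the tissue labels could not be checked in this way. In whole tissue, fewer cells of a type and less RNA per cell cannot be told apart.

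The bed arrays were less alike than the edge arrays. Over the tested probes the bed arrays correlated with each other at r of 0.770 to 0.846 and the edge arrays at 0.935 to 0.978, while a bed and an edge array correlated at 0.721 to 0.870 (correlations over probes, which are not independent). The median SD of a probe between arrays was 0.533 on the log2 scale in bed and 0.274 in edge, against a median error of 0.0801 over the spots of a probe on 1 array. Bed replicate 1 had a mean r of 0.899 with the 3 bed arrays of day 2 and of 0.808 with the other bed arrays of day 15, while bed replicates 2 and 3 had 0.757 and 0.689 with the bed arrays of day 2. It had the most probes above the blank spots, 934, against 689 and 708 on bed replicates 2 and 3 and 764, 828 and 686 on edge replicates 1, 2 and 3. Median spot signals were 2.05 to 2.43 times the local background in bed and 1.25 to 1.80 times in edge. Precision is limited by the number of arrays, 3 a group.

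At day 15 the bed differed from the edge at 80 probes, 8.21% of those tested, in nearly even numbers in each direction. A total of 38 probes were higher in bed (3.9%) and 42 were lower in bed (4.31%). A probe is called where the limma adjusted p (Benjamini-Hochberg over the 974 probes) is below 0.05, and 235 probes passed an unadjusted p below 0.05. The median difference over all tested probes was -0.01 on the log2 scale and the median absolute difference 0.499, with a median SE of 0.412. Over all tested probes the 3 bed values and the 3 edge values did not overlap at 293 (30.1%), and among the called probes they did not overlap at 38 of 38 higher and 41 of 42 lower. The 38 rises lay between 1.16 and 3.15 on the log2 scale with a median of 1.66, and 6 were over 4-fold. The 42 falls lay between -4.81 and -0.94 with a median of -1.64, and 14 were over 4-fold.

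**Figure D1:**
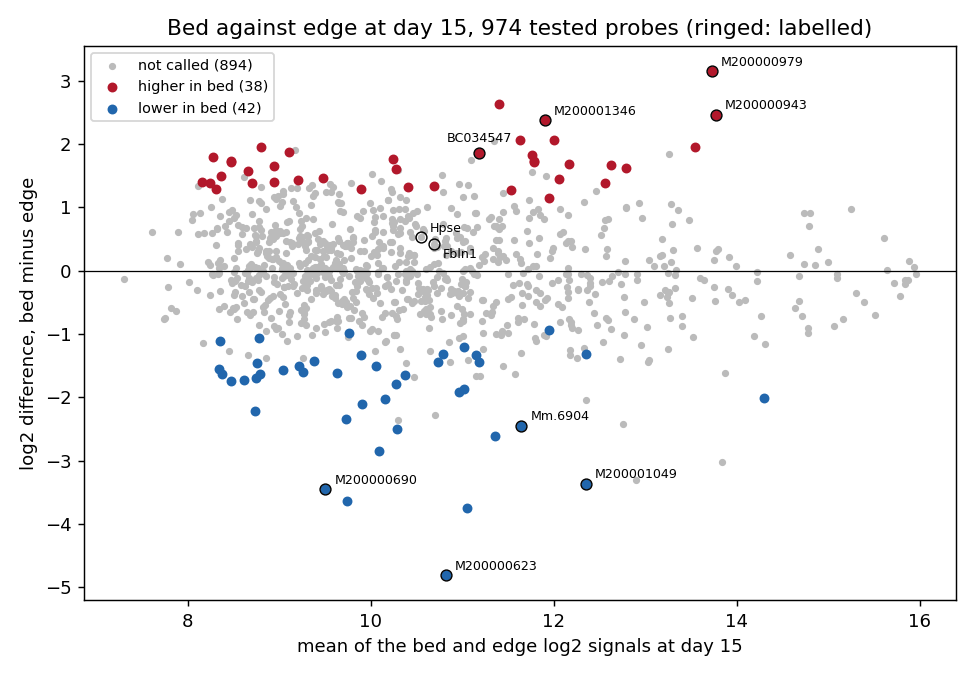
Log2 difference of bed minus edge at day 15 (vertical) against the mean of the bed and edge log2 signals (horizontal), 1 point for each of the 974 tested probes. The 38 called rises lie between 1.16 and 3.15 and the 42 called falls between -4.81 and -0.94, with Hpse and Fbln1 among the probes not called.

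The number of calls rests on each of several arrays. It was 50 without bed replicate 3, and 39, 47 and 37 without edge replicates 1, 2 and 3. Without bed replicate 1 it rose to 95, with 66 of the 80 probes among them. Without bed replicate 2 it rose to 103, with 67 of the 80 among them. Fitted to the 6 arrays alone the number of calls was 36. Scaled by the median of each array in place of quantile normalization, 23 probes were higher and 62 lower in bed, 27.1% higher in place of 47.5%, with a median difference of -0.20 over all tested probes. The plot of calls by setting shows both directions in every setting.

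**Figure D2:**
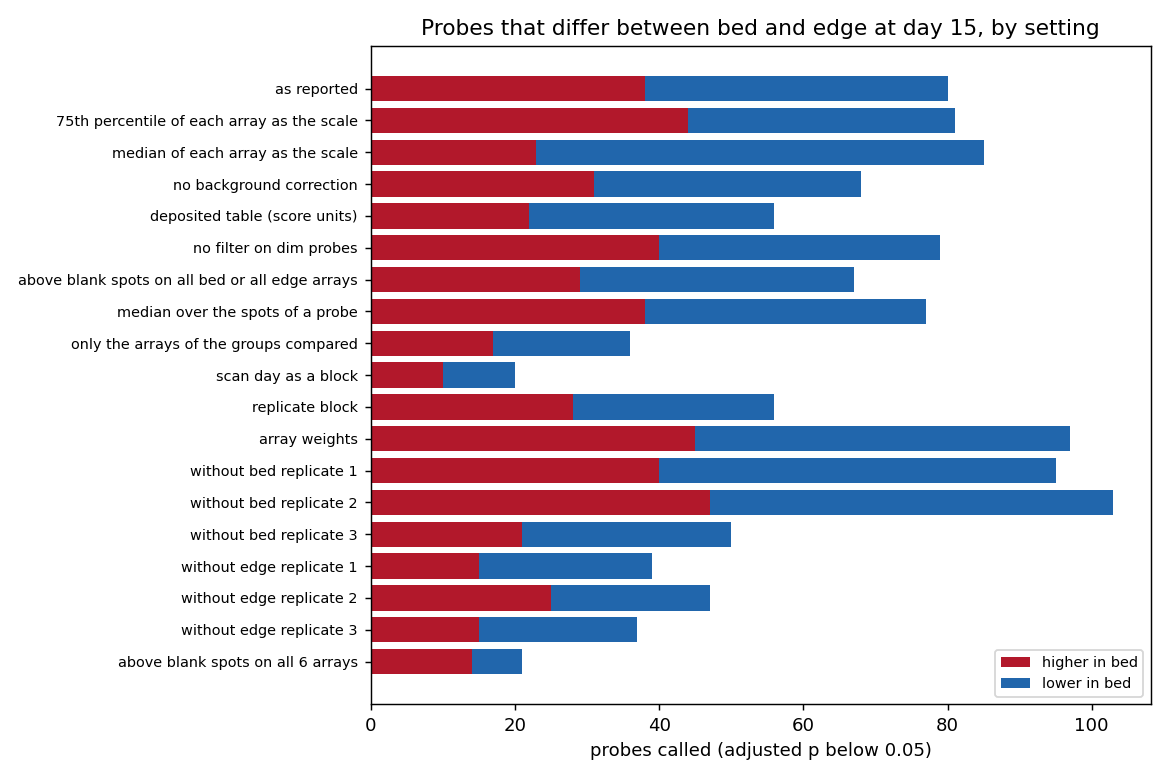
Number of probes called between bed and edge at day 15 (horizontal axis, adjusted p below 0.05) under each setting (vertical axis), split into higher in bed and lower in bed. The count is 80 as reported, 103 at most (without bed replicate 2) and 20 at least (scan day as a block).

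Bed and edge arrays were mostly scanned on different days, and scan day moves with the groups. Bed replicates 2 and 3 were scanned on the third of 3 scan days and edge replicates 1 and 2 on the first, so that bed replicate 1 and edge replicate 3 alone shared a scan day. With scan day as a block 20 probes were called (2.05%), 19 of them among the 80, with a median SE of 0.509. All 38 rises and all 42 falls kept their sign in that fit, with medians of 1.58 and -1.49. The probes were chosen for their difference on these same arrays, so the kept signs are no test of scan day. Within the shared scan day, with 1 array on each side and so no test, the difference of bed minus edge had a median of 1.55 at the 38 rises and -1.72 at the 42 falls, while the median over all tested probes was 0.04. The direction of that pair was fixed by the choice of the probes, since bed and edge arrays did not overlap at 79 of the 80, and so it is a description only.

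The largest rise was at the probe M200000979. Its log2 signal was 15.71, 14.41 and 15.79 on the bed arrays, against 12.41, 12.59 and 11.45 on the edge arrays. All 3 bed values lay above all 3 edge values, by more than the spread of either group. The difference was 3.15 (SE 0.61, limma adjusted p = 0.00305), and 3.15 in the fit blocked by scan day (adjusted p = 0.0461). All 8 spots of this probe were saturated on bed replicate 1, where its level is a lower limit. The bed mean was 15.30 ± 0.78, the edge mean 12.15 ± 0.61 and the intact skin mean 12.65 ± 0.91 (SD, n = 3 each).

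The second rise that the naming rule took was at M200000943. It read 14.11, 15.14 and 15.76 on the bed arrays, against 12.67, 12.40 and 12.55 on the edge arrays. The groups did not overlap, and the bed arrays spread more widely than the edge arrays. The difference was 2.46 (SE 0.36, limma adjusted p = 0.000408), and 2.26 in the fit blocked by scan day (adjusted p = 0.0149). Bed replicates 2 and 3 had 4 and 1 saturated spots for it. It was 12.94 in bed against 12.64 in edge at day 6, and 12.41 in bed against 11.72 in edge at day 2, so the gap at day 15 was the widest of the 3 days, but the change of the difference was not called (2.16 against day 6, limma adjusted p = 0.0949, and 1.78 against day 2, adjusted p = 0.126).

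The largest fall was at M200000623, which was dark in the bed and bright in the edge. The bed arrays read 7.32, 8.89 and 9.06, none of them above the blank spots, against 13.46, 13.43 and 12.81 on the edge arrays. The fitted difference was -4.81 (SE 0.83, limma adjusted p = 0.00113, and 0.0205 with scan day as a block). As the bed signal is only a bound, the bed was at least 17.5-fold lower than the edge. That bound sets the edge mean against the lowest signal still counted above the blanks. On the earlier days the edge mean was 11.01 ± 2.87 at day 2 and 9.34 ± 0.33 at day 6 (SD, n = 3 each). The fitted difference was -3.555 at day 2 and called (limma adjusted p = 0.00749), but not with scan day as a block (0.0594). At day 6 it was not called (limma adjusted p = 0.115). Intact skin had a mean of 11.23 ± 0.27 (SD, n = 3), between those of bed and edge at day 15. Edge minus intact skin was 2.0 and not called (limma adjusted p = 0.335). Bed minus intact skin was -2.81 and called (limma adjusted p = 0.0319), but not with scan day as a block (0.0721).

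M200000690 was likewise dark in bed and bright in edge, and it was dark in intact skin too. Its bed signals were 7.54, 8.32 and 7.48, again with none above the blank spots, against 11.44, 11.19 and 11.05 in edge. The groups were far apart, with a difference of -3.45 (SE 0.55, limma adjusted p = 0.000672, and 0.0197 with scan day as a block), and the bed was at least 4.38-fold lower. Intact skin was not above the blank spots on any array (8.08 ± 0.21, SD, n = 3). The edge was at least 3.61-fold higher than intact skin (fitted log2 difference 3.15, limma adjusted p = 0.00179). Bed minus edge was also called at day 2 (-2.615, limma adjusted p = 0.00384, and 0.0488 with scan day as a block). At day 6 it was not called (limma adjusted p = 0.153).

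**Figure D3:**
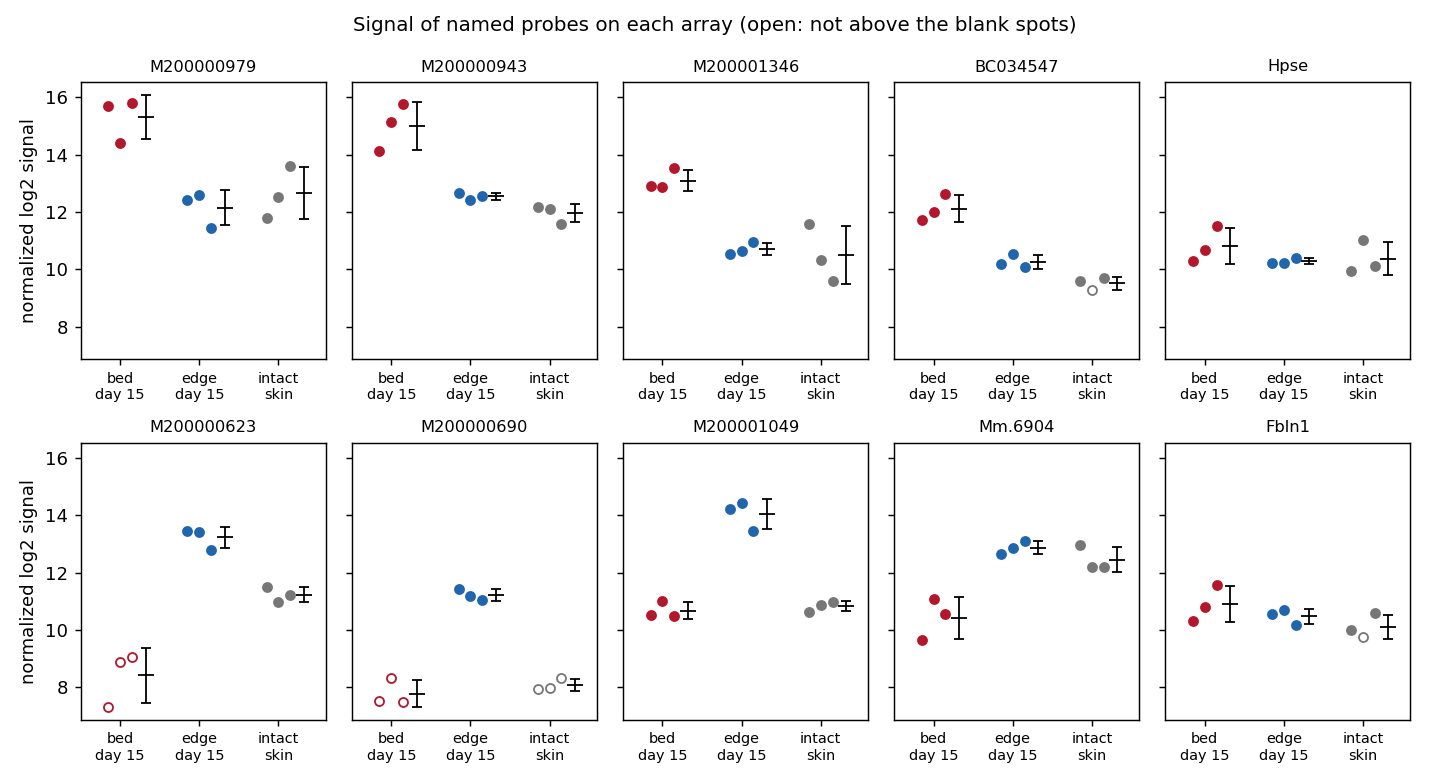
Normalized log2 signal (vertical axis) of 10 probes on the 3 bed and 3 edge arrays of day 15 and the 3 intact skin arrays, with mean ± SD at the right of each group and open circles for signals not above the blank spots. M200000979 and M200000943 reach 15.79 and 15.76 in bed, M200000623 and M200000690 are at the blank level on all 3 bed arrays, and the bed and edge values of Hpse and Fbln1 overlap.

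Hpse and Fbln1, the tested probes with a gene symbol, were not called at day 15. Other genes of heparan sulfate or matrix could not be read, as any probes for them have no gene name here. Hpse encodes heparanase, which cuts heparan sulfate chains. Its probe read 10.28, 10.66 and 11.51 in bed, against 10.21, 10.24 and 10.41 in edge. The ranges overlapped, with bed replicate 1 inside the edge range and bed replicate 3 the highest of the 6. The difference was 0.53 (SE 0.32, limma adjusted p = 0.334). At day 6 Hpse was called higher in bed (0.999, limma adjusted p = 0.0427), but not with scan day as a block (0.422). The change of its difference from day 6 to day 15 was not called (-0.47, limma adjusted p = 0.885). Fbln1 encodes fibulin-1, a glycoprotein of elastic fibres and basement membranes. It read 10.33, 10.81 and 11.56 in bed, against 10.55, 10.70 and 10.17 in edge, with a difference of 0.43 (SE 0.51, limma adjusted p = 0.644) and overlapping ranges. Bed replicate 3 had the highest value of both genes. Ndst3 encodes an enzyme that removes acetyl groups from heparan sulfate and adds sulfate, and its probe stayed at the blank level on all 21 arrays.

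Among the 43 tested probes with a public sequence identifier 2 were called (4.65%), beside 8.21% of all tested probes. Both were singled out after their values were seen. The probe BC034547 read 11.71, 12.01 and 12.63 in bed, against 10.17, 10.53 and 10.07 in edge. The difference was 1.86 (SE 0.46, limma adjusted p = 0.0156). Blocked by scan day it was 2.05 and not called (adjusted p = 0.0824), nor was it called without bed replicate 3 (adjusted p = 0.0709), edge replicate 1 (0.0592) or edge replicate 3 (0.0571). Mm.6904 fell. It read 9.65, 11.07 and 10.55 in bed, against 12.65, 12.87 and 13.10 in edge, with no overlap and a difference of -2.45 (SE 0.36, limma adjusted p = 0.000408, and 0.00889 with scan day as a block). Its bed was also lower than its edge on both earlier days, by a log2 difference of -2.82 at day 2 and -2.15 at day 6, both called.

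Many of the called probes were at the blank level on 1 side. Over all 974 tested probes, 504 were above the blank spots on all 6 arrays. Of the 38 rises, 21 were above the blank spots on all 6 arrays, and 14 were above them on no edge array. The fold bounds of those 14 reached 1.87 at most, and 10 of them were over 1. Of the 42 falls, 9 were above the blank spots on all 6 arrays and 13 were above them on no bed array, with bounds over 1 at 12 and a median bound of 1.41. In 20 other falls the bed was above the blank spots on 1 or 2 arrays. Probes at the blank level on 1 side were not counted over all tested probes. The size of a fold against a signal at the blank level is unknown, and the fitted fold may lie above or below the true one. Over the 504 probes above the blank spots on all 6 arrays, tested by themselves, 21 were called, 14 higher and 7 lower in bed. This restriction was added after the data were seen.

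M200001365 was the called probe whose bed and edge arrays overlapped, and it was singled out for that. It read 6.53, 6.78 and 10.45 in bed, against 11.85, 12.52 and 10.29 in edge. Bed replicate 3 was above edge replicate 3, and bed replicates 1 and 2 were at the blank level. The difference was -3.63 (SE 1.0, limma adjusted p = 0.0354). The call was lost without bed replicate 1 or 2 (adjusted p = 0.112 and 0.0924) and without edge replicate 1 or 2 (0.106 and 0.128). It was also lost in the fit blocked by scan day (0.141) and with the replicate block (0.0563).

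The comparisons of bed and of edge with intact skin use the same bed and edge arrays, and the 2 of them share the intact arrays, so their values are given side by side as a description. Scan day also moves with the comparison of bed and intact skin. Bed replicates 2 and 3 were scanned on the third scan day, on which no intact or edge array was scanned. Across all tested probes 54 were higher and 63 lower in bed than in intact skin (5.54% and 6.47%), and 13 were higher and 5 lower in edge than in intact skin (1.33% and 0.513%). At the 38 probes higher in bed than in edge, the median difference from intact skin was 1.50 for bed and -0.15 for edge, beside 0.01 and -0.02 over all tested probes. By limma, bed was called above intact skin at 26 of the 38 and edge at 1. At the 42 probes lower in bed than in edge, the median difference from intact skin was -1.20 for bed and 0.25 for edge. Bed was called below intact skin at 24 of these 42. Edge was called above intact skin at 7 and below it at 1. The 38 and 42 probes were chosen for their bed to edge difference on these same arrays. That choice by itself can move bed and edge away from intact skin, and more so the group with the wider spread. The median SD of a probe was 0.533 in bed and 0.274 in edge. The medians over all tested probes carry no such choice. These counts are therefore no test of whether bed or edge departed from intact skin. The plot of levels shows the medians beside each probe.

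**Figure D4:**
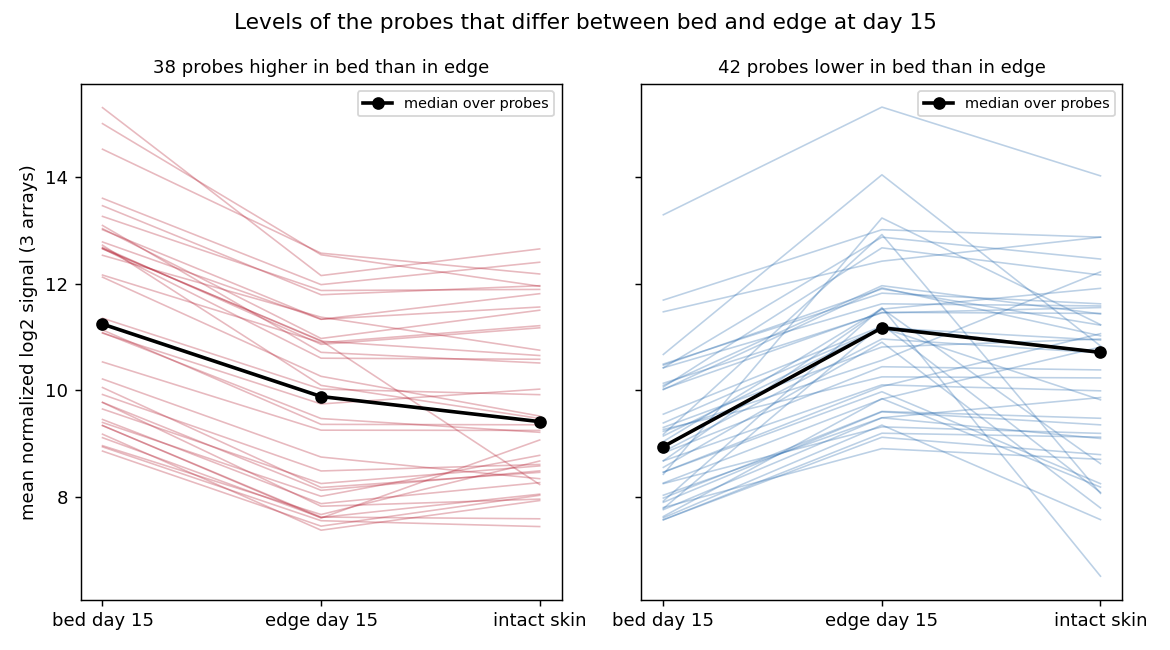
Mean log2 signal over 3 arrays (vertical axis) in bed at day 15, edge at day 15 and intact skin for the 38 probes higher in bed (left) and the 42 lower in bed (right), 1 line a probe and the median in black. The median difference from intact skin was 1.50 for bed and -0.15 for edge on the left, and -1.20 for bed and 0.25 for edge on the right.

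Single probes departed from those medians, and were chosen for it. M200000353 is the rise at which the edge was also called above intact skin. Its mean was 12.65 ± 1.25 in bed and 10.93 ± 0.28 in edge, against 8.23 ± 0.37 in intact skin, where no array was above the blank spots (SD, n = 3 each). Bed was at least 9.67-fold and edge at least 2.94-fold higher than intact skin. The difference between bed and edge, 1.72 (SE 0.48, limma adjusted p = 0.0339), was lost without bed replicate 2 (adjusted p = 0.117), bed replicate 3 (0.128) or any 1 edge array (0.121, 0.0845 and 0.0627 without edge replicates 1, 2 and 3), and in the fit blocked by scan day (0.235). The call between bed and edge at M200000353 was lost in 10 of 18 settings. Among them were the 6 arrays alone (limma adjusted p = 0.137), each array scaled by its median (0.0893) and the deposited score (0.0553). M200000911 is the fall at which the edge was also called below intact skin, with means of 9.23 ± 0.29 in bed, 10.56 ± 0.23 in edge and 12.22 ± 0.66 in intact skin. Bed differed from intact skin by -2.99 on the log2 scale (limma adjusted p = 5.46e-05) and edge by -1.66 (adjusted p = 0.0255). Its bed to edge difference was -1.33 (SE 0.39, limma adjusted p = 0.0364), and that call was lost without any 1 of the 6 arrays, with adjusted p of 0.052 to 0.13. Blocked by scan day, neither bed against edge (limma adjusted p = 0.0864) nor edge against intact skin (0.0514) was called at this probe.

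M200001049 was a fall at which the edge was called apart from intact skin and the bed was not. It read 10.53, 11.01 and 10.48 in bed, against 14.21, 14.45 and 13.46 in edge, and its intact skin mean was 10.83 ± 0.18. It was chosen after its values were seen. Bed minus intact skin was -0.16 and not called (SE 0.41, limma adjusted p = 0.85), and the edge was above intact skin by 3.21 (adjusted p = 6.96e-05). Bed minus edge was -3.37 (SE 0.41, limma adjusted p = 6.69e-05, and 0.000979 with scan day as a block).

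The bed to edge difference was also measured on other arrays at day 2 and day 6. Those bed and edge arrays had the same scan days as at day 15, so scan day moves with the groups on all 3 days. The part of scan day in the overlap of the lists was not tested. At day 2 38 of all tested probes were higher in bed (3.9%) and 49 lower (5.03%), and at day 6 78 were higher (8.01%) and 81 lower (8.32%). Of the 38 rises of day 15, 9 were called higher at day 2, which is 23.7% of each list, and 15 were called higher at day 6, 39.5% of the day-15 list and 19.2% of the day-6 list. Of the 42 falls of day 15, 20 were called lower at day 2 (47.6% of the day-15 list, 40.8% of the day-2 list) and 24 at day 6 (57.1% and 29.6%). The median difference of the 38 rises was 0.87 at day 2 and 1.0 at day 6, and that of the 42 falls -1.18 at day 2 and -1.32 at day 6, beside medians of 0.06 and -0.04 over all tested probes. A total of 10 falls and 3 rises were called in the same direction on all 3 days. The 3 rises were M200000721, M200000901 and M200000905, named after their values were seen.

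**Figure D5:**
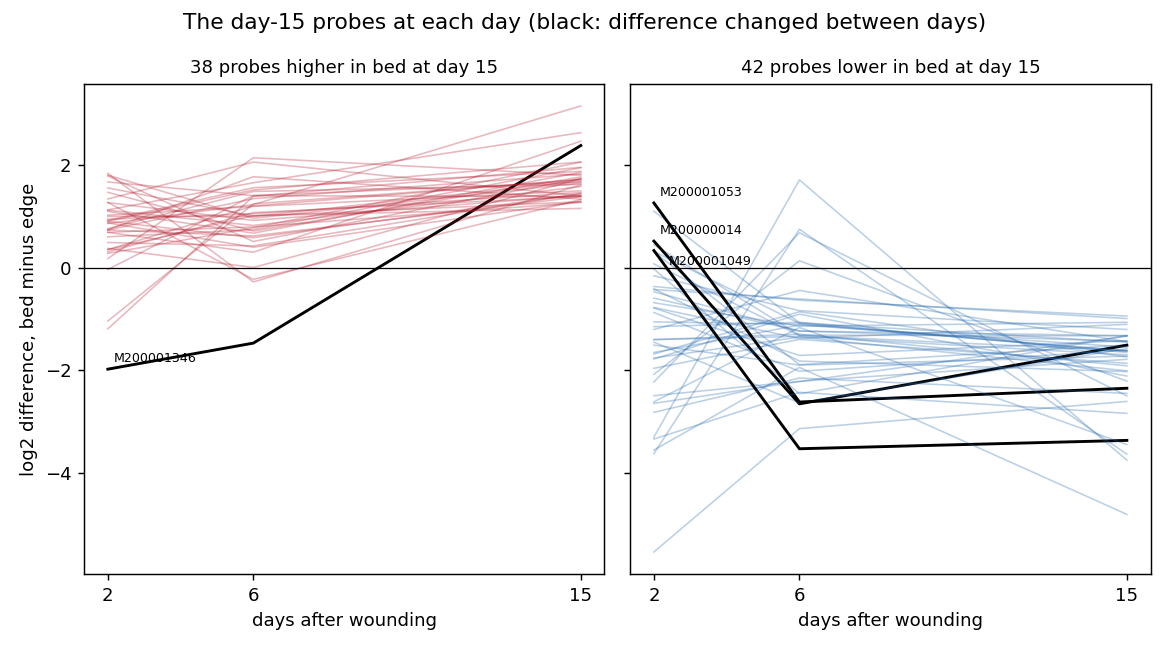
Log2 difference of bed minus edge (vertical axis) at 2, 6 and 15 days after wounding (horizontal axis) for the 38 probes higher in bed at day 15 (left) and the 42 lower in bed (right), 1 line a probe, with 4 probes whose difference changed between days in black. M200001346 lies below 0 at days 2 and 6 and at 2.38 at day 15, and M200001049 lies at 0.33 at day 2 and -3.37 at day 15.

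M200001346 was called higher in bed at day 15 and lower in bed on both earlier days, and was chosen for it. At day 15 it read 12.90, 12.86 and 13.52 in bed, against 10.54, 10.63 and 10.96 in edge, with no overlap and a difference of 2.38 (SE 0.38, limma adjusted p = 0.000672). On the earlier days no bed array was above the blank spots, with bed means of 8.34 ± 0.35 at day 2 and 9.10 ± 0.03 at day 6, while edge means were 10.32 ± 0.28 and 10.57 ± 0.22 (SD, n = 3 each). The bed was thus at least 2.61-fold lower than the edge at day 2 and at least 1.80-fold lower at day 6 (fitted differences -1.98 and -1.47, limma adjusted p = 0.00226 and 0.0154). Blocked by scan day, the difference at day 2 was still called (-1.61, limma adjusted p = 0.0425) and that at day 6 was not (-1.10, adjusted p = 0.271). The edge mean was 10.71 ± 0.22 at day 15 and 10.51 ± 1.01 in intact skin. The change of the difference was 3.85 against day 6 (SE 0.54, limma adjusted p = 0.000621) and 4.36 against day 2 (SE 0.54, adjusted p = 9.67e-05). Both calls held in all 22 settings in which they were tested. Scan day as a block was among them, but it could not move the change, which stayed at 3.85 and 4.36. Bed arrays had the same scan days at days 2, 6 and 15, and so did edge arrays.

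Tests of the difference itself called few probes between days. The bed to edge difference changed between day 6 and day 15 at 1 probe (0.103%), which was M200001346, while 55 probes passed an unadjusted p below 0.05. Between day 2 and day 15 it changed at 6 (0.616%), and 104 passed an unadjusted p below 0.05. Besides M200001346, 3 of these 6 were also called at day 15. M200001049 changed by -3.70 (SE 0.57, limma adjusted p = 0.00136), M200001053 by -3.61 (SE 0.66, adjusted p = 0.0077) and M200000014 by -2.03 (SE 0.42, adjusted p = 0.0232). In all 3 the edge signal was low at day 2 and higher later. M200001049 had edge means of 9.69, 14.77 and 14.04 at days 2, 6 and 15, M200001053 of 8.33, 12.37 and 10.90, and M200000014 of 8.31, 11.05 and 9.97. Edge signals of M200001053 and M200000014 were not above the blank spots on any array at day 2. The other two, M200000254 (-2.83, adjusted p = 0.0413) and M200001518 (4.84, adjusted p = 0.0266), were not called at day 15, and the change of M200000254 was not called in the fit blocked by scan day (0.0544). All 6 were named after their values were seen.

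The count between day 2 and day 15 turned on the arrays used. It was 50 without bed day 15 replicate 1, 10 without bed day 2 replicate 3, and 3 without bed day 15 replicate 3, edge day 15 replicate 2, or edge day 2 replicate 1 or 2. The count between day 6 and day 15 was 5 without bed day 15 replicate 1, 3 without bed day 15 replicate 3 or bed day 6 replicate 3, and 2 without edge day 15 replicate 3. The call of M200000014 between day 2 and day 15 was lost without bed day 15 replicate 3 (limma adjusted p = 0.0669), without edge day 15 replicate 1 or 2 (0.058 and 0.0768) and without edge day 2 replicate 1 or 2 (0.076 and 0.0556). With the replicate block it was lost too (limma adjusted p = 0.0622).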

How the data were processed

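Per the labels' protocols, each sample gave 500 ng of RNA for linear amplification with a Cy3 nucleotide, and each array was read in 1 colour. The authors deposited scanner output, in which the brightness of a spot is an intensity on a linear scale, with a flag of unstated meaning for each spot. Per the file headers, spots were quantified from a 532 nm scan. The authors also deposited a table of a scaled log score for each probe, used as an alternative. Rebuilt from the scanner values, it differed by at most 0.00119.

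Intensities were background-corrected (normexp, offset 50), averaged as log2 over 8 spots a probe (flag 1 left out), and quantile normalized, which hides a shift of most transcripts one way. Probes above the 95th percentile of the blank and empty spots on at least 3 arrays were tested. A group-means model over all 21 arrays (14 residual degrees of freedom) was fitted with limma 3.58.1 in R 4.3.3 and tested on simulated data, two-sided. This replaced the scaling to the 75th percentile first planned for another scanner format, which became an alternative. P-values measure only the spread between these samples. Slides held 1 array each. None of the 210 pairs of arrays held identical values.

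The comparison, gene lists and tests were chosen with earlier results of these data known. The rule for naming took the probes with symbols and the 2 largest rises and 2 largest falls that were above the blank spots on all arrays of the brighter group, did not overlap and were also called with scan day as a block. Symbols came from a RefSeq table (GRCm38.p6), to which 3 probes matched. Alternatives were the scaling, background correction, filter, spot summary, arrays in the fit, array weights, scan day, replicate number and each array left out.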

Additional observations from a re-analysis of the deposited data

Results flagged for a closer look

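The difference between bed and edge was tested for a change between days. Between day 6 and day 15 it changed at 1 probe of 974, M200001346, by 3.85 on the log2 scale. Between day 2 and day 15 it changed at 6 probes. Of these, 4 also differed at day 15 itself. M200001346 changed by 4.36, M200001049 by -3.70, M200001053 by -3.61 and M200000014 by -2.03. These changes partly rest on signals at the blank level, so their sizes are not settled. Such signals were in bed for M200001346 at days 2 and 6, and in edge for M200001053 and M200000014 at day 2. For M200000014 no bed array was above the blank spots at day 15, and 1 of 3 was at day 2. For M200001053 1 of 3 bed arrays was above them at day 15. The part of those signals in the changes was not tested.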

How the results depend on the processing

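The 80 calls at day 15 became 36 in a fit to the 6 arrays alone, 20 with scan day as a block, 21 among probes above the blank spots on all 6 arrays, and 37 to 103 with 1 array left out. In the other settings there were 56 to 97. The 75th percentile as the scale gave 44 higher and 37 lower, and the deposited score 22 higher and 34 lower. The single call between day 6 and day 15 became 3 with the 75th percentile, 2 with the median over spots, 3 with the arrays compared alone, 4 with array weights and 1 to 5 with 1 array left out. The 6 calls between day 2 and day 15 became 37 with array weights and 3 to 50 with 1 array left out. The causes were not tested. Samples of the same replicate number did not deviate together (r of -0.171, 0.018 and -0.173 at day 15). These correlations over probes cannot tell whether bed and edge of a number came from the same animal. The replicate block gave 56, 1 and 4 calls. BC034547 was also lost with each array scaled by its median (adjusted p = 0.075), and with scan day as a block M200000014, M200001053, M200000911, M200001365 and M200000353 were lost (0.0864, 0.0557, 0.0864, 0.141 and 0.235). No difference of a probe named by the rule reversed in any setting. Probes at the blank level give bounds only, and 713 probes were too dim to test.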
